A study of Mus musculus with 3 samples.

Results

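Cells of the mouse nasal lining that carried transcripts of olfactory supporting-cell detoxification enzymes but none of the mucin Muc2 were described in 3 single-cell libraries. They were chosen by a rule on the deposited counts of unique molecular identifiers (UMIs, one per captured RNA molecule). A barcode was kept when it had at least 500 UMIs, at least 200 genes and at most 20% mitochondrial UMIs. Of these, the chosen cells had at least 3 UMIs of at least 3 of the 5 genes Cyp2g1, Cyp2a5, Cyp1a2, Ermn and Sec14l3, no Muc2 and no Ptprc UMI, and at most 4 Omp UMIs. The rule found 232 cells in the library of mice given papain with lonidamine, 205 in the papain library and 228 in the PBS library, together 665 of 32376 kept barcodes. They are called Muc2-negative cells here, and the levels of the 8 genes that chose them are descriptions. Cells that met the same rule with 1 or more Muc2 UMIs numbered 631, 449 and 75 in the same libraries and are called Muc2-positive cells.

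The study asked what lonidamine does to the nasal mucosa of mice with a papain-induced eosinophilic inflammation of the nose and sinuses. Mice were C57BL/6J by the genotype label (C57BL/6 in the design text), and each group was made up equally of males and females by the design text. One group received 20 µg papain in the nose and lonidamine at 10 mg/kg into the stomach (the lonidamine library below), one received the same papain and PBS into the stomach (the papain library), and one received PBS in the nose (the PBS library). The mucosa of all mice of a group was mixed before the cells were captured, so each group is 1 library and no difference below has a replicate check. The sources used here do not give the number of mice in a pool, their age or the times of dosing and sampling. One label names the papain library Fibroblast, but its title (Model) and its treatment label say papain, and it was used as such. Intervals in square brackets are exact 95% intervals that cover counting error only.

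Sustentacular cells are the supporting cells of the olfactory epithelium. They surround the sensory neurons, clear inhaled chemicals with cytochrome P450 and conjugating enzymes, and share several of these enzymes with the duct and gland cells that lie beneath the epithelium. Papain is a plant cysteine protease that provokes allergic inflammation in the airways, and lonidamine is an inhibitor of hexokinase, of lactate and pyruvate transport and of respiratory complex II. Chitinase-like proteins such as Chil4 are classical epithelial markers of type 2 (allergic) inflammation in mice.

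Chil4 and Chil6 are neighbouring relatives of the chitinase family that behaved very differently in these cells, and Cyp1a1 is the classical target of the aryl hydrocarbon receptor. The 250 bases before the annotated start of each are shown so that their upstream sequences can be compared. They were taken from RefSeq on GRCm38.p6, which is not the build of the counts, at chr3:106219480-106219729 for Chil4 (minus strand), chr3:106406183-106406432 for Chil6 (minus strand) and chr9:57697363-57697612 for Cyp1a1 (plus strand). Capitals mark the TATA-box letters TATAAA and the xenobiotic response core GCGTG, both searched on both strands.
Chil4: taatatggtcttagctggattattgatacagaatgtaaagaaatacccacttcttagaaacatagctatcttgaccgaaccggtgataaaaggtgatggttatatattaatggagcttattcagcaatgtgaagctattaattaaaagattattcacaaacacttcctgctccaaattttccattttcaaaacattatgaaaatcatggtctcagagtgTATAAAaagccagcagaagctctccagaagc
Chil6: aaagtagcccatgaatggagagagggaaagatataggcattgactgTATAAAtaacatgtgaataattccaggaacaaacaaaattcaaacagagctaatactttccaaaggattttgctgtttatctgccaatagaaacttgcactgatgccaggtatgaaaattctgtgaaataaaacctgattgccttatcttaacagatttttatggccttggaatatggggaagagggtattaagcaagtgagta
Cyp1a1: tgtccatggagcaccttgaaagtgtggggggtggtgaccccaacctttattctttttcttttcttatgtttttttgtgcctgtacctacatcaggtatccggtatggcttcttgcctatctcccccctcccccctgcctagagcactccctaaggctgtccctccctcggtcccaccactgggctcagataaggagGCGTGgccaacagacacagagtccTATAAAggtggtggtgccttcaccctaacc
TATAAA began 31 bases before the start of Chil4, 204 before that of Chil6 and 30 before that of Cyp1a1. It occurs in 12.4% of the 32851 RefSeq windows of that length that were searched. Windows of a single chromosome, which holds none of these genes, were left out of all such shares. GCGTG occurs once in the Cyp1a1 window, 54 bases before its start, not in the windows of Chil4 and Chil6, and in 28.2% of all windows. The STAT6 letters TTC and GAA with 4 bases between them are in none of these 3 windows and in 5.85% of all; no matches overlapped. The G and C share was 34% for Chil4, 35.6% for Chil6 and 53.6% for Cyp1a1. These matches describe the letters only.

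The deposited libraries held 89164040, 86197965 and 82399462 UMIs over 12598, 11071 and 9740 barcodes in the order lonidamine, papain and PBS. The Muc2-negative cells contributed 3182486, 3311733 and 4113507 of them, with a median of 14248, 15070 and 20065 UMIs a cell. They were thus shallower in both papain-treated libraries than in the PBS library, and levels are given as counts per 1000000 UMIs of the Muc2-negative cells of a library (CPM). A pair of further measures moved with the treatment: 18S ribosomal RNA took 2.30%, 2.22% and 0.620% of their UMIs, and of the cells that could be classed by Xist or Y-linked genes 70.5%, 69.2% and 43.8% were female. Their part in the differences below was not tested beyond the values given for each sex. Libraries shared between 22 and 38 barcodes, none of them Muc2-negative cells in more than 1 library.

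The genes that chose the cells were not equally strong in them. Cyp2a5, a P450 that oxidises nicotine and coumarin, stood at 19721, 12758 and 21166 CPM in the lonidamine, papain and PBS libraries, and Cyp2g1, an olfactory P450, at 2825, 2773 and 2628 CPM. Sec14l3, a lipid-transfer protein, stood at 152, 214 and 90.7 CPM and had no UMI in 144, 115 and 166 of the cells, against 5573, 4056 and 1512 CPM in the Muc2-positive cells. Most cells passed on exactly 3 of the 5 markers (162, 119 and 140) or on 4 (69, 80 and 85). Just outside the rule lay 349, 270 and 154 cells with only 2 markers, and 47, 27 and 14 cells that met the marker rule with exactly 1 Muc2 UMI. Since mature neuron-like barcodes held a Muc2 UMI in 4.87%, 4.10% and 1.13% of cases, a single Muc2 UMI can come from free RNA.

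The data met the name sustentacular only in part. Of the 10 further sustentacular markers outside the rule, Krt8, Krt18, Por and Cyp2f2 were within 2-fold of the Muc2-positive cells in each library. The keratins Krt8 and Krt18 stood at 2037, 2753 and 2119 and at 1824, 3049 and 2957 CPM in the lonidamine, papain and PBS libraries. The P450 reductase Por was at 1415, 987 and 1310 CPM, against 2041, 1757 and 1043 CPM in the Muc2-positive cells. The P450 Cyp2f2 was at 5637, 3921 and 3976 against 6296, 5429 and 2612 CPM. Por and Cyp2f2 were thus below the Muc2-positive cells in both papain-treated libraries and above them in the PBS library. Sox2, the transcription factor that marks sustentacular and basal cells, was at 24.5, 35.6 and 20.2 CPM, below the 90.1, 77.9 and 60.4 CPM of all other barcodes and 12.3, 7.36 and 13.7 times lower than in the Muc2-positive cells. With every cell thinned to 3000 UMIs, 5.19%, 9.69% and 7.37% of the Muc2-negative cells held a Sox2 UMI. Cbr2, a carbonyl reductase, and Sult1c1, a sulfotransferase, were also 3.77, 3.42 and 8.16 times and 5.69, 3.41 and 3.35 times lower than in the Muc2-positive cells. Of the remaining markers, Ugt2a1 was at 106, 65.8 and 41.8 CPM, above the 21.9, 18.3 and 4.31 CPM of all other barcodes. Hes1 was also above them, at 769, 662 and 394 against 654, 492 and 166 CPM. Notch2 was at 17.0, 24.5 and 17.7 against 33.4, 26.8 and 17.0 CPM. The gland list of 5 genes was mixed: the water channel Aqp5 (1631, 1684 and 2626 CPM) and the secreted protein Wfdc18 (9293, 15101 and 2420 CPM) were well above all other barcodes (290, 309 and 339 CPM for Aqp5), while Dmbt1 and Lyz1, further gland secretions, were at or near 0. Lactoferrin Ltf was at 1079, 2791 and 87.5 CPM against 2467, 2630 and 479 CPM in all other barcodes, so it was above them only in the papain library.

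Genes looked up after the values were seen showed the same contrast. Sox9, a transcription factor of ducts and glands, stood at 308, 354 and 318 CPM in the Muc2-negative cells of the lonidamine, papain and PBS libraries, against 65.0, 41.9 and 57.0 CPM in the Muc2-positive cells. Sox10, the neural crest and gland factor, was at 55.0, 51.6 and 65.2 CPM against 7.36, 8.02 and 7.51 CPM. The gel-forming mucin Muc5b was at 2994, 1869 and 1675 CPM against 281, 260 and 79.6 CPM, and the potassium channel Kcnk2 ran the other way at 10.1, 6.95 and 9.24 CPM against 573, 662 and 485 CPM. Thinned, 52.4%, 48.0% and 52.1% of Muc2-negative cells held a Sox9 UMI and 16.0%, 12.8% and 16.3% a Sox10 UMI. For Muc5b the shares were 62.3%, 51.0% and 61.6%. Summed over cells, the Muc2-negative cells therefore carry P450 markers with Sox9, Sox10, Aqp5 and Muc5b and with little Sox2. Whether single cells carry these genes together was not tested. The cells are described by their rule, with no cell type name.

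**Figure D1:**
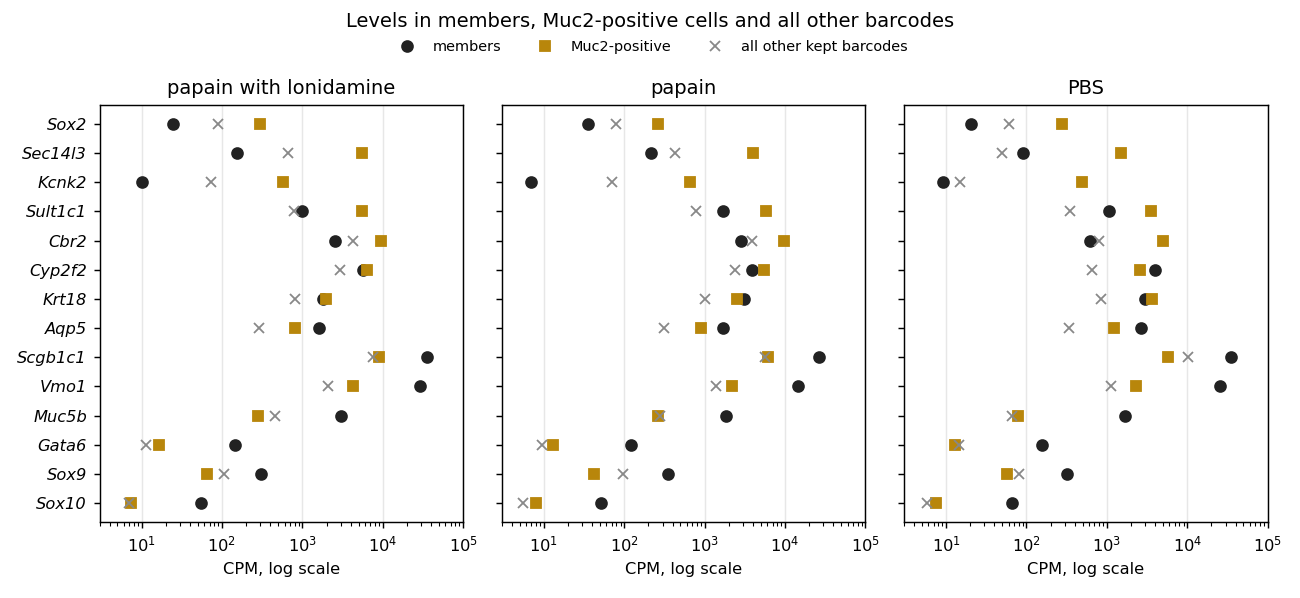
CPM (log axis) of 14 genes in Muc2-negative cells, Muc2-positive cells and all other kept barcodes, with 1 panel each for the lonidamine, papain and PBS libraries. In all 3 panels Sox2 and Kcnk2 are lower, and Sox9, Sox10 and Muc5b higher, in Muc2-negative than in Muc2-positive cells (Sox2 24.5, 35.6 and 20.2 against 301, 262 and 275 CPM).

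Within each library, 370 of 8476 genes were at least 2-fold higher and 370 at least 2-fold lower in Muc2-negative than in Muc2-positive cells in all 3 libraries. This is a description, since the cells were split by Muc2. Higher genes included Ggt1, the gamma-glutamyltransferase that starts glutathione breakdown (282, 199 and 367 against 31.1, 20.0 and 28.5 CPM), the protease inhibitor Slpi (139, 112 and 226 against 12.3, 7.57 and 9.01 CPM) and Cyp1a1 (438, 145 and 270 against 40.0, 17.7 and 22.5 CPM). Chil6 was at 8373, 6706 and 7142 CPM against 933, 762 and 304 CPM. Lower genes included Papss2, which makes the sulfate donor of sulfotransferases (124, 111 and 71.7 against 1047, 811 and 667 CPM), creatine kinase Ckb (53.4, 41.4 and 104 against 598, 480 and 819 CPM) and the membrane mucin Muc16 (67.2, 112 and 22.6 against 473, 460 and 186 CPM).

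Set against all other barcodes, genes with a mean of at least 100 CPM were ranked by the smallest of their 3 log2 ratios, and Chil6 came first (4.50), followed by the organic cation transporter Slc22a2. The organic ion transporter Slc22a20 stood at 1186, 473 and 730 CPM, against 44.0, 24.9 and 12.3 CPM in all other barcodes of the lonidamine, papain and PBS libraries. The steroid reductase Srd5a2 stood at 918, 346 and 841 CPM against 56.2, 40.1 and 50.5 CPM, and the glutathione transferase Gstm5 at 3097, 2164 and 2410 CPM against 306, 272 and 157 CPM. All 3 were thus at least 7 times higher than in the other barcodes of each library, with the widest gap for Slc22a20 in the PBS library.

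The Muc2-negative cells made up 1.91% [1.67, 2.17] of kept barcodes in the lonidamine library, 1.91% [1.66, 2.19] in the papain library and 2.40% [2.1, 2.72] in the PBS library. Muc2-positive cells made up 5.19% [4.81, 5.60], 4.19% [3.82, 4.59] and 0.788% [0.620, 0.987]. The Muc2-negative share thus differed little, while the Muc2-positive share was several times higher in both papain-treated libraries. Muc2-negative cells were 26.88% [23.95, 29.97], 31.35% [27.80, 35.06] and 75.25% [69.99, 80.00] of both kinds together. Free Muc2 RNA and depth also differed between the libraries, and their part in these shares was not tested. With barcodes first thinned to 3000 UMIs the rule left 173, 123 and 149 Muc2-negative cells.

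**Figure D2:**
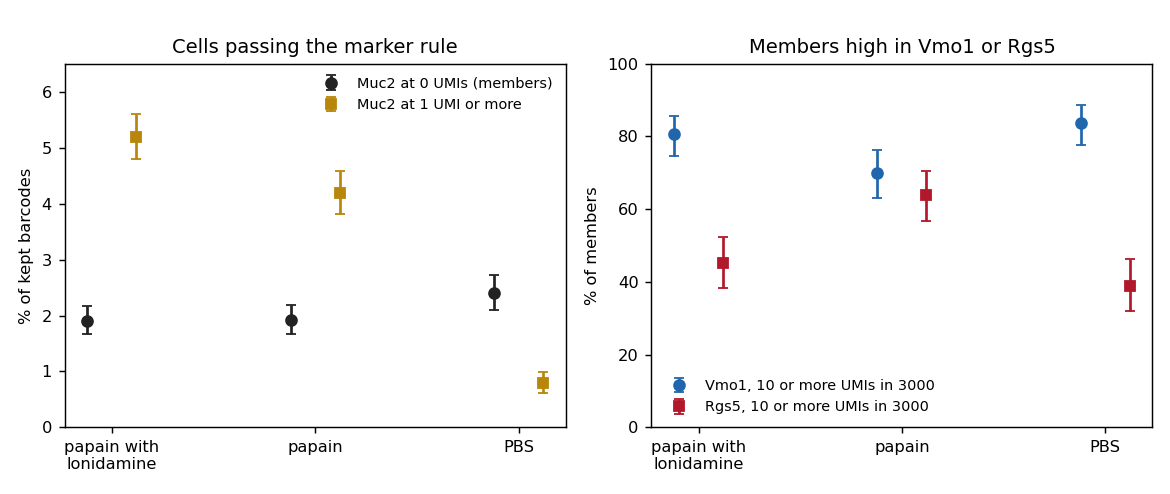
Left, percent of kept barcodes that were Muc2-negative or Muc2-positive cells in the lonidamine, papain and PBS libraries; right, percent of Muc2-negative cells with 10 or more UMIs of Vmo1 or of Rgs5 in 3000. Bars are exact 95% binomial intervals; the Muc2-negative share is 1.91%, 1.91% and 2.40%, and the Muc2-positive share 5.19%, 4.19% and 0.788%.

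The Muc2-negative cells varied among themselves along lines that recurred in all 3 libraries. After thinning to 3000 UMIs, 650 genes with a mean of at least 0.5 UMIs were ranked by variance over mean, and 23 were in the top 30 of every library. Bpifa1, a secreted antibacterial protein of airway glands, ranked first in each, with medians of 0, 1 and 0 UMIs but maxima of 1061, 1210 and 1660 of 3000 in the lonidamine, papain and PBS libraries. Most cells thus held next to none and a few devoted a large share of their RNA to it. Reg3g, a lectin that kills Gram-positive bacteria, and Lcn2, the iron-sequestering lipocalin, also had medians of 0, 1 and 0 UMIs. Their maxima were lower, at 240, 189 and 144 for Reg3g and 120, 139 and 77 for Lcn2. Wfdc18 and Muc5b were uneven too, but more cells held them. Wfdc18 was found in 70.8%, 72.4% and 43.2% of cells, with maxima of 279, 380 and 95. Muc5b was found in 62.3%, 51.0% and 61.6%, with maxima of 118, 67 and 44. Vmo1, a secreted relative of an egg membrane protein, had medians of 46, 22.5 and 64.5 UMIs, and Rgs5, a regulator of G-protein signalling, medians of 4, 47.5 and 1.

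Vmo1 went with Chil6 across the 212, 196 and 190 thinned cells of the lonidamine, papain and PBS libraries (Spearman 0.79, 0.79 and 0.83) and Rgs5 with Msln, the surface protein mesothelin (0.86, 0.84 and 0.79). Cells of 1 library share its preparation and free RNA, and these values are descriptions. Cells with 10 or more Vmo1 UMIs were 80.7%, 69.9% and 83.7%, and those with 10 or more Rgs5 UMIs 45.3%, 63.8% and 38.9%. Rgs5-rich cells were thus more frequent in the papain library than in either other one. Both limits were passed by 40.6%, 53.6% and 35.3% and neither by 14.6%, 19.9% and 12.6%, and across cells Vmo1 and Rgs5 had Spearman values of -0.28, 0.05 and -0.47. Both are limits set on a level, and whether the cells form separate kinds was not tested. Close to the limits, at 5 to 14 UMIs, lay 29, 35 and 21 cells for Vmo1 and 20, 5 and 16 for Rgs5. Since this mixture moved with treatment, the values of the genes most affected are also given within the Vmo1-rich and the Rgs5-rich cells, a split chosen after the data were seen.

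Chil4 was the gene that set the papain-treated cells most apart from the PBS cells. It had 9972 UMIs in the lonidamine library, 8608 in the papain library and 6 in the PBS library, or 3133, 2599 and 1.46 CPM. The log2 ratio of papain over PBS was 10.68 [9.68, 12.25], and that of lonidamine over papain 0.27 [0.23, 0.31]. Chil4 RNA was also found outside these cells: mature neuron-like barcodes, which should lack it, held 157, 277 and 0.580 CPM, immune barcodes 171, 1358 and 0.705 CPM and all other barcodes 2764, 5529 and 27.7 CPM. In the papain library the Muc2-negative cells were thus less than 3 times above the immune barcodes and below the other barcodes, and Chil4 did not meet the limit set below for named genes. Thinned to 3000 UMIs, 26.4%, 42.3% and 0% of Muc2-negative cells held a Chil4 UMI, against 13.0%, 25.6% and 0.0736% of neuron-like barcodes; the PBS value of 0 of 190 cells has an upper limit of 1.92%. Unthinned the shares were 49.1%, 76.1% and 1.32%. A single Chil4 UMI in a papain-treated cell can therefore be background, and 10 or more UMIs in 3000 separate better: 10.4%, 15.3% and 0% of Muc2-negative cells reached that level, against 0.301%, 0.462% and 0% of neuron-like barcodes.

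The Chil4 RNA was concentrated in few cells, the 5 richest holding 50.4% of it in the lonidamine library and 51.3% in the papain library. It was not evenly shared by sex either: the log2 ratio of lonidamine over papain was 0.58 in female cells and -4.49 in male cells. Within Vmo1-rich cells the same ratio was -1.63, and within Rgs5-rich cells -2.61, so the near-equal pooled level in both libraries did not hold in these ranges. The Muc2-positive cells carried more Chil4 at 5132, 17550.5 and 0 CPM. Chil4-rich cells of both papain-treated libraries were rich in Reg3g (Spearman 0.54 in the lonidamine and 0.48 in the papain library), the small heat shock protein Hspb1 (0.50 and 0.44), the hypoxia factor Epas1 (0.57 and 0.43) and the interferon-induced membrane protein Ifitm1 (0.60 and 0.43), the most alike of 1718 genes. At the other end, Chil6 had -0.54 and -0.40 and Scgb1c1, a secretoglobin, -0.49 and -0.40. Chil4 thus tended to be high where Chil6 and Scgb1c1 were low.

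**Figure D3:**
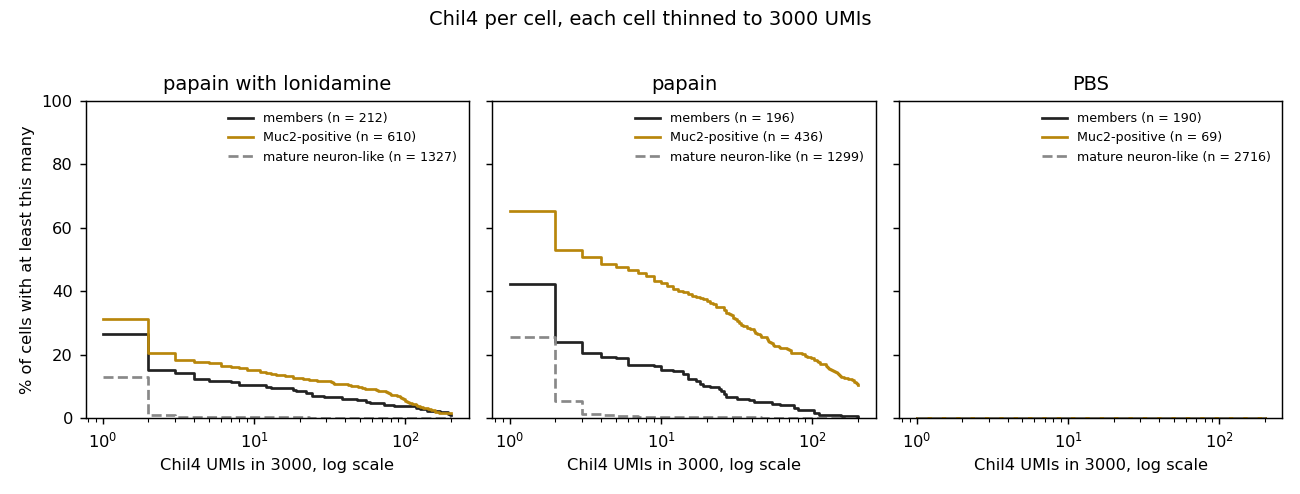
Percent of cells (vertical axis) with at least a given number of Chil4 UMIs after thinning to 3000 (horizontal log axis) for Muc2-negative cells (212, 196 and 190 cells in the lonidamine, papain and PBS libraries), Muc2-positive cells and mature neuron-like barcodes. At 10 or more UMIs the Muc2-negative cells are at 10.4%, 15.3% and 0%, and the neuron-like barcodes at 0.301%, 0.462% and 0%.

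The relatives of Chil4 were compared next. Chil6 was at 8373, 6706 and 7142 CPM in the lonidamine, papain and PBS libraries, with log2 ratios of -0.09 for papain over PBS and 0.32 for lonidamine over papain. Chil1, a chitinase-like glycoprotein of inflamed epithelium, was at 249, 451 and 124 CPM (1.86 and -0.85), so it too was at least 2-fold higher in papain over PBS. Chil3 was close to the detection limit with 21, 21 and 8 UMIs (1.65 [0.47, 3.09] for papain over PBS) and lay below the level set for the genes compared. Chil4 and Chil1 thus lay above PBS in papain and Chil6 did not. Reg3g, which went with Chil4 across cells, was at 4580, 6916 and 1101 CPM, with log2 ratios of 2.65 [2.60, 2.70] and -0.59 [-0.62, -0.56]. All other barcodes held 5832, 7231 and 815 CPM of Reg3g, more than these cells in both papain-treated libraries. Thinned, 43.9%, 55.6% and 20.0% of Muc2-negative cells held a Reg3g UMI, against 25.6%, 36.0% and 5.78% of neuron-like barcodes. In male cells the ratio of lonidamine over papain for Reg3g was -4.75, and in female cells 0.13.

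Across all genes with a mean of at least 10 CPM, papain against PBS showed 407 of 8476 genes at least 2-fold higher with a counting interval that excludes equality, which is 4.8%, and 295 at least 2-fold lower, which is 3.48%. The median log2 ratio of all genes was -0.04, with 90% of genes between -0.88 and 0.97. Genes named next were at least 3 times above the neuron-like and immune barcodes of the library where they were higher, and had the same direction in female cells alone.

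Among the genes highest in papain over PBS, Ltf, the iron-binding antimicrobial lactoferrin, stood at 1079 CPM in the lonidamine, 2791 CPM in the papain and 87.5 CPM in the PBS library, a log2 ratio of papain over PBS of 4.99 [4.84, 5.15]. Thinned, 42.5%, 63.8% and 10.5% of cells held an Ltf UMI, against 18.5%, 18.5% and 5.63% of neuron-like barcodes. Cells with Ltf were thus more frequent than background in both papain-treated libraries and most frequent in the papain library. Bpifb1, a secreted relative of Bpifa1, was at 66.3, 206 and 7.54 CPM (4.75), Pglyrp1, a peptidoglycan-binding protein, at 319, 553 and 53 CPM (3.38), and Tff2, a trefoil factor of mucus, at 538, 740 and 60.3 CPM (3.62). For Bpifb1 the difference rested on few cells: within Rgs5-rich cells its log2 ratio was -0.29, and in cells with at least 4 of the 5 markers -0.12.

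Cxcl5, a chemokine that attracts neutrophils, was at 66.3, 614 and 43.8 CPM in the lonidamine, papain and PBS libraries, with a log2 ratio of papain over PBS of 3.81 [3.59, 4.04]. It had UMIs in 92 of the 205 papain cells, and thinned shares were 3.77%, 35.7% and 5.26%, against 0.980%, 1.08% and 0.147% of neuron-like barcodes. Of the Muc2-positive cells of the papain library 3.67% held a Cxcl5 UMI. Muc2-positive cells had 8.71, 52.1 and 6.00 CPM, with a log2 ratio of papain over PBS of 3.03. All other barcodes had 71.8, 102 and 3.66 CPM. In the lonidamine library the 5 richest Muc2-negative cells held 79.6% of their Cxcl5 UMIs. Among Muc2-negative cells the log2 ratio of papain over PBS was 3.23 within Rgs5-rich and 3.93 within Vmo1-rich cells. The zinc exporter Slc30a2 was at 6.28, 54.7 and 0.486 CPM, the last from 2 UMIs (6.49 [4.94, 9.87]), and the secreted glycoprotein Olfm4 at 8.80, 35.9 and 0.729 CPM, the last from 3 UMIs (5.41 [4.04, 7.92]). All 3 were far higher in the papain library than in both others. Mucus genes were carried by few cells: Muc5ac, a gel-forming mucin, was at 142, 63.7 and 4.86 CPM (3.68) with 86.8% and 59.7% of it in the 5 richest cells of the lonidamine and papain libraries, and Itln1, a lectin of mucus, was at 151, 76.4 and 5.59 CPM (3.74). The secretoglobin Scgb3a1 (4.17), the secreted Fam3d (3.25) and the transcript AU040972 (4.01, 94.5% of it in 5 papain cells) completed the 12 highest.

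Among genes lower in papain, Cox8b, the muscle-type subunit of cytochrome c oxidase, was the most widespread. It stood at 200 CPM in the lonidamine, 114 CPM in the papain and 1338 CPM in the PBS library, and thinned shares of cells were 26.4%, 18.4% and 82.1%, against 0.980%, 0.847% and 4.93% of neuron-like barcodes. The log2 ratio of papain over PBS was -3.55 [-3.70, -3.40] and stayed between -3.22 and -3.33 within Vmo1-rich and Rgs5-rich cells. Calb1, a calcium-binding protein, was at 168, 42.3 and 317 CPM (-2.90 [-3.17, -2.65]), and the linker histone H1f2 at 78.2, 81.2 and 483 CPM (-2.57). Both papain-treated libraries were thus low in Cox8b and H1f2, whereas Calb1 lay between in the lonidamine library. Outside these cells Cox8b and H1f2 were lower than in PBS too. Muc2-positive cells had 80.9, 67.1 and 433 CPM of Cox8b and 77.7, 109 and 443 CPM of H1f2. All other barcodes had 57.8, 48.2 and 300 CPM of Cox8b and 81.7, 91.1 and 192 CPM of H1f2. Ptgds, the prostaglandin D synthase, was at 33.6, 153 and 1829 CPM (-3.58), and Bpifb6, a BPI-fold protein, at 46.8, 478 and 2480.4 CPM (-2.37), with 79.6% and 95.9% of their papain UMIs in 5 cells. In the PBS library the 5 richest cells held 77.8% of the Ptgds and 75.3% of the Bpifb6 UMIs. All other PBS barcodes stood higher, at 2034 CPM for Ptgds and 3334 CPM for Bpifb6. The Bpifb6 ratio was -5.26 in female cells, but -0.68 in male cells and -0.82 after thinning, both inside 2-fold. The 12 lowest also included H4c8 (-2.58), Tmem86a (-2.19), the adenosine receptor Adora2b (-2.18), the kininogen Kng2 (-2.16), the acetyltransferase Nat8 (-2.16), Bex4 (-2.09) and the laminin chain Lamb1 (-2.08).

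**Figure D4:**
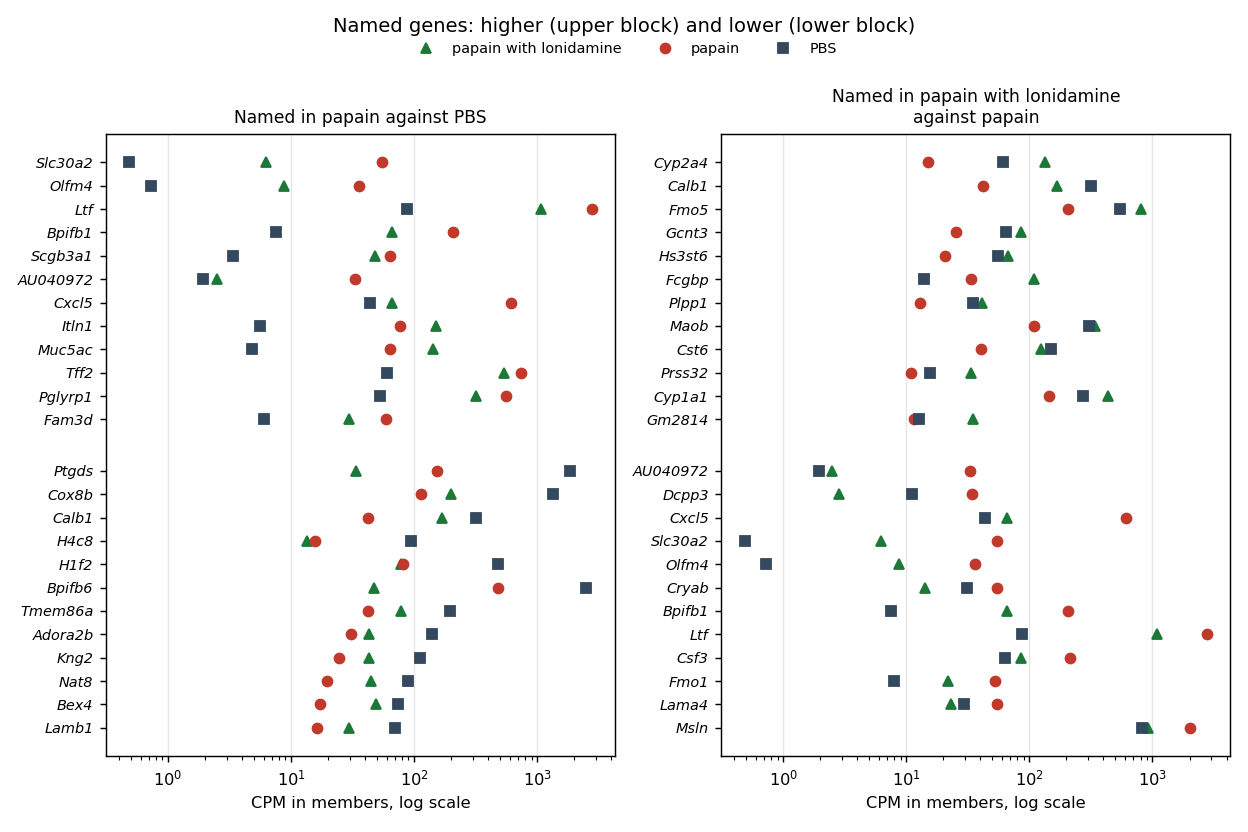
CPM (log axis) of the named genes in Muc2-negative cells of the lonidamine, papain and PBS libraries; left, the genes furthest apart in papain against PBS, right, those furthest apart in lonidamine against papain, with the higher genes in the upper block. Cxcl5 (66.3, 614 and 43.8 CPM) stands out only in the papain library, and Cox8b (200, 114 and 1338 CPM) is low in both papain-treated libraries.

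By function, the type 2 epithelial genes, a list of goblet and lipid-mediator genes, were higher in papain in 6 of the 7 that could be compared, with a median log2 ratio of 2.06 against -0.04 for all genes. Besides Itln1 and Muc5ac these were the lipoxygenases Alox15 (34.6, 39.9 and 9.48 CPM in the lonidamine, papain and PBS libraries) and Alox12e, the goblet factor Spdef (67.9, 88.5 and 30.6 CPM) and Fcgbp. Agr2, a disulfide isomerase of mucus cells, was high everywhere at 2845, 2661 and 2303 CPM. Of the secreted antimicrobial genes 5 of 7 were higher and 1 lower, against 4.8% and 3.48% of all genes, with a median of 2.65. Pigr, the receptor that carries IgA across epithelia, was at 453, 787 and 120 CPM (2.71) and Lcn2 at 2225, 3966 and 1717 CPM (1.21), while Slpi was lower (-1.02) and Wfdc2 was similar at 7184, 5354 and 4661 CPM (0.20). Lyz2 was at 1891 CPM in immune barcodes of the papain library, above the 571 CPM of Muc2-negative cells there.

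NF-kB response genes were higher in 6 of 16, against 4.8% of all genes, with a median of 0.62. They were Cxcl5, Lcn2, Cxcl2, Icam1, the chemokine Ccl20 and Tnfaip3, a brake of the pathway (116, 161 and 78.8 CPM in the lonidamine, papain and PBS libraries, 1.03), while the inhibitor Nfkbia was level at 382, 407 and 388 CPM. Cxcl2, Icam1 and Tnfaip3 were higher in immune barcodes than in these cells (3488, 451 and 661 CPM in the papain library). Of 7 genes of the type 2 receptors and their signalling none was 2-fold apart, and the median was 0.28. The complement component C3 was at 181, 167 and 31.4 CPM (2.41), and the EGF receptor ligand Hbegf at 140, 114 and 24.6 CPM (2.20). Interferon-response genes were split, 4 of 11 higher and 1 lower, and their median of 0.80 was -0.30 without the 5 richest cells of each gene.

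Chemical-clearance genes did not move together. Their counts stand beside 4.8% of all genes at least 2-fold higher in papain over PBS and 3.48% lower. Of the 11 cytochrome P450 genes outside the rule 1 was higher in papain, Cyp4b1 (13.8, 20.8 and 5.83 CPM in the lonidamine, papain and PBS libraries), and 2 lower, Cyp2a4 and Cyp27a1, a sterol hydroxylase (41.8, 29.0 and 77.3 CPM), with a median of -0.38. Other phase I genes had 7 of 40 higher and 5 lower (median -0.38). Cbr2 was at 2513, 2829 and 619 CPM (2.19), and the aldehyde dehydrogenase Aldh3a1 at 99.9, 113 and 18.2 CPM (2.63). The alcohol dehydrogenases split, with Adh7 at 182, 161 and 22.4 CPM (2.84) and Adh1 at 714, 285 and 843 CPM (-1.56). Phase II genes had 4 of 22 higher and 2 lower (median -0.20), led by the glutathione transferase Gsto1 at 639, 553 and 49.1 CPM (3.49). The aryl hydrocarbon receptor Ahr itself was at 24.2, 40.8 and 12.9 CPM (1.65), below the 46.7 CPM of neuron-like barcodes of the papain library. In Gpx6, an olfactory glutathione peroxidase, papain was lower (2024, 1700 and 5663 CPM, -1.74), as in Gpx4, the lipid hydroperoxide reductase (729, 582 and 1297 CPM, -1.16). All other barcodes had similar levels of Gpx6, at 2327, 1591 and 5012 CPM, and Muc2-positive cells 1319, 300 and 410 CPM. Thinned Muc2-negative cells had Gpx6 medians of 0, 0 and 1 UMIs and maxima of 65, 303 and 227.

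Energy genes had ratios of papain over PBS mostly below 0, but few were 2-fold apart. Of 82 oxidative phosphorylation genes 79 had a ratio below 0, against 53.5% of all genes, with a median of -0.52. Only 3 of the 82 were at least 2-fold lower, a share close to the 3.48% of all genes. Of 14 glycolysis genes 13 were below 0 (median -0.56) and 3 at least 2-fold lower, among them Tpi1 (125, 121 and 261 CPM in the lonidamine, papain and PBS libraries, -1.11) and Eno1 (26.4, 28.4 and 77.3 CPM, -1.44). Gapdh was at 422, 407 and 733 CPM (-0.85). All 12 genes of the tricarboxylic acid cycle were below 0 (median -0.49), as were all 77 ribosomal protein genes (median -0.26), and of 20 sterol synthesis genes 4 were lower (median -0.46), among them Fdps (91.1, 68.5 and 171 CPM, -1.32). Outside these cells such sums were lower than in PBS too. The glycolysis list summed to 1711, 1764 and 3040 CPM in Muc2-negative cells and 2718, 2998 and 5590 CPM in all other barcodes. In all other barcodes the oxidative phosphorylation list summed to 20664, 21789 and 28657 CPM. The sterol synthesis list summed there to 830, 834 and 1741 CPM. Depth and the share of 18S RNA differed between these libraries too, and their part in these small shifts was not tested. Dissociation-response genes such as Fos and Jun had all 13 ratios above 0 (median 0.46), with Fosb at 1113, 1540 and 702 CPM (1.13).

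Among surface and identity genes, the epithelial factor Ehf was at 171, 258 and 120 CPM in the lonidamine, papain and PBS libraries (1.10), one of 4 of 14 Notch and identity genes that were higher (median 0.61), with Notch1, Notch3 and Jag2. The tight junction protein Cldn4 was at 217, 438 and 159 CPM (1.46) and Cldn10, a pore-forming claudin, at 450, 348 and 729 CPM (-1.07). Junction genes as a list had 2 of 14 higher and 1 lower (median 0.31), against 4.8% and 3.48% of all genes. Both claudins differed by at least 2-fold, in opposite directions.

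Lonidamine with papain was then set against papain alone. Both comparisons share the papain library, so their values stand side by side and are not independent. Of 8476 genes 118, which is 1.39%, were at least 2-fold higher and 87, which is 1.03%, at least 2-fold lower in the lonidamine library, and the median log2 ratio was 0.00, with 90% of genes between -0.57 and 0.59.

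The genes named next met the same limits as above. Fmo5, a flavin monooxygenase, was at 809 CPM in the lonidamine, 205 CPM in the papain and 547 CPM in the PBS library, a log2 ratio of lonidamine over papain of 1.98 [1.86, 2.11]. Thinned, 44.3%, 20.9% and 46.3% of cells held an Fmo5 UMI, against 1.36%, 1.0% and 0.994% of neuron-like barcodes. Cyp1a1 was at 438, 145 and 270 CPM (1.60 [1.45, 1.75]) with thinned shares of 40.1%, 19.9% and 36.8%. For both enzymes the lonidamine and PBS cells had similar shares and the papain cells the lowest. Maob, which oxidises monoamines, was at 338, 109 and 302 CPM (1.63), Calb1 at 168, 42.3 and 317 CPM (1.99 [1.72, 2.27]) and the mucin-type glycosyltransferase Gcnt3 at 85.2, 25.4 and 64.4 CPM (1.74). Vmo1 itself was at 29098, 14604 and 25906 CPM (0.99). Within Rgs5-rich cells the ratio was 1.25 for Fmo5, 0.67 for Cyp1a1 and 1.15 for Maob, and within Vmo1-rich cells 1.72, 1.38 and 1.47.

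Cyp2a4 had the highest ratio among the genes within these limits, at 135, 15.1 and 61.5 CPM in the lonidamine, papain and PBS libraries (3.15 [2.73, 3.61]). It is nearly identical to Cyp2a5, so reads could be divided between them, and 74.4% and 74.0% of its UMIs came from the 5 richest cells of the lonidamine and papain libraries. The 12 highest also held the sulfotransferase Hs3st6 (1.70), the mucus protein Fcgbp (110, 33.8 and 13.9 CPM, 1.69), the lipid phosphatase Plpp1 (1.66), the protease inhibitor Cst6 (125, 40.2 and 150 CPM, 1.63), the protease Prss32 (1.62) and the predicted gene Gm2814 (1.59). Hs3st6 had a ratio of 0.26 within Rgs5-rich cells. Fcgbp was lowest in PBS and highest with lonidamine, and so was Muc5ac in the pooled cells (1.16). For Fcgbp the ratio of lonidamine over papain was 1.94 in female and 0.96 in male cells and -0.16 after thinning. For Muc5ac it was 1.70 in female cells and -3.47 [-5.55, -2.18] in male cells, so the order of the pooled levels did not hold in male cells.

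Among the genes lower with lonidamine, Cxcl5, at 66.3, 614 and 43.8 CPM in the lonidamine, papain and PBS libraries, had a log2 ratio of lonidamine over papain of -3.21 [-3.42, -3.01], which was -3.01 within Rgs5-rich and -3.09 within Vmo1-rich cells, -3.71 in female and -1.94 in male cells. In Muc2-positive cells the Cxcl5 ratio was -2.57. Slc30a2 (-3.09), Olfm4 (-2.01), Bpifb1 (-1.63) and Ltf (-1.37 [-1.43, -1.31]) were also lower in Muc2-negative cells. Some of these fell inside 2-fold under another choice of cells: the Olfm4 ratio was -0.62 [-1.71, 0.38] in male cells, the Bpifb1 ratio -0.30 in female cells, and the Ltf ratio -0.82 with markers at 2 UMIs. Csf3, the granulocyte growth factor, was at 85.2, 213 and 63.9 CPM (-1.32), and mesothelin Msln at 927, 2008 and 819 CPM (-1.11). For Csf3 this rested on female cells, where the ratio was -1.79 against -0.44 [-0.89, -0.01] in male cells, and the ratio of papain over PBS was 4.52 in female and 0.21 [-0.14, 0.56] in male cells. For Msln, which went with Rgs5 across cells, the ratio was -0.47 within Rgs5-rich cells and 0.026 in male cells. The small heat shock protein Cryab (14.1, 55.0 and 31.1 CPM, -1.95), the flavin monooxygenase Fmo1 (22.0, 52.5 and 8.02 CPM, -1.25), the laminin chain Lama4 (-1.24), AU040972 (-3.64) and the salivary protein Dcpp3 (-3.53, from 5 papain cells) completed the 12 lowest.

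As lists, the cytochrome P450 genes had 10 of 11 ratios of lonidamine over papain above 0, against 50.1% of all genes, with a median of 0.53 and 2 genes at least 2-fold higher, Cyp2a4 and Cyp1a1. Of all genes 1.39% were at least 2-fold higher and 1.03% lower in this comparison. Cyp2f2, the most abundant outside the rule, was at 5637, 3921 and 3976 CPM in the lonidamine, papain and PBS libraries (0.52), and Cyp3a13 at 258, 155 and 147 CPM (0.74). Other phase I genes had 4 of 40 higher and 2 lower (median 0.28), with Adh1 (1.32) and the aldehyde oxidase Aox2 at 635, 249 and 264 CPM (1.35). Phase II genes had 1 of 22 higher, Gstz1 (99.6, 40.5 and 62.7 CPM, 1.30), and a median of 0.27. Type 2 epithelial genes had 2 of 7 higher and none lower (median 0.10), with medians of 1.25 in female and -2.95 in male cells. NF-kB response genes had 2 of 16 lower and none higher (median -0.15), and 12 of the 16 ratios were below 0. Antimicrobial genes had none higher and 2 of 7 lower (median -0.80), a median that was 0.078 in female cells. Interferon-response genes had 5 of 11 lower and none higher (median -0.98), among them Cxcl10 (8.80, 37.1 and 4.62 CPM, -2.06), and the median was 0.091 in female cells. Cxcl10 was higher in immune barcodes of the papain library, at 204 CPM. Odorant-binding proteins and lipocalins had 4 of 5 higher (median 1.48), but Obp1a, at 435, 156 and 167 CPM, was at 597, 241 and 244 CPM in neuron-like barcodes above its level in the Muc2-negative cells.

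The proteins that lonidamine is known to act on were looked at as RNA. Hexokinase Hk2 was at 145, 257 and 150 CPM in the lonidamine, papain and PBS libraries, with log2 ratios of 0.78 for papain over PBS and -0.82 [-0.99, -0.66] for lonidamine over papain, and Hk1 was at 27.0, 26.9 and 29.4 CPM. The Hk2 ratio of lonidamine over papain was -0.57 within Rgs5-rich cells, but past 2-fold at -1.02 within Vmo1-rich cells, -1.01 in male cells and -1.33 after thinning. Its ratio of papain over PBS was 1.39 in female cells, 0.08 in male cells and 1.33 after thinning. Slc16a1, the lactate carrier MCT1, had 6, 7 and 9 UMIs, too few for a comparison. Of 9 target genes that could be compared none was 2-fold apart between lonidamine and papain (median 0.07). For papain over PBS 8 of 9 lay below 0, against 53.5% of all genes, with a median of -0.66. Of the 9, 1 was at least 2-fold lower, against 3.48% of all genes. This was Sdhb, a subunit of respiratory complex II, at 143, 117 and 272 CPM (0.29, and -1.22 for papain over PBS). The whole target list summed to 2452, 2225 and 3408 CPM in these cells and 1670, 1750 and 2218 CPM in all other barcodes. Of the 82 oxidative phosphorylation genes 69 had a ratio of lonidamine over papain above 0, against 50.1% of all genes. Their median was 0.12, and none was 2-fold apart. In glycolysis 1 of 14 was lower, Aldoc (22.9, 48.3 and 26.0 CPM, -1.07), with a median of -0.09. Insig1, the sterol sensor, was the 1 of 20 sterol genes that was higher (576, 248 and 404 CPM, 1.21). Of all genes 1.39% were at least 2-fold higher and 1.03% lower with lonidamine.

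**Figure D5:**
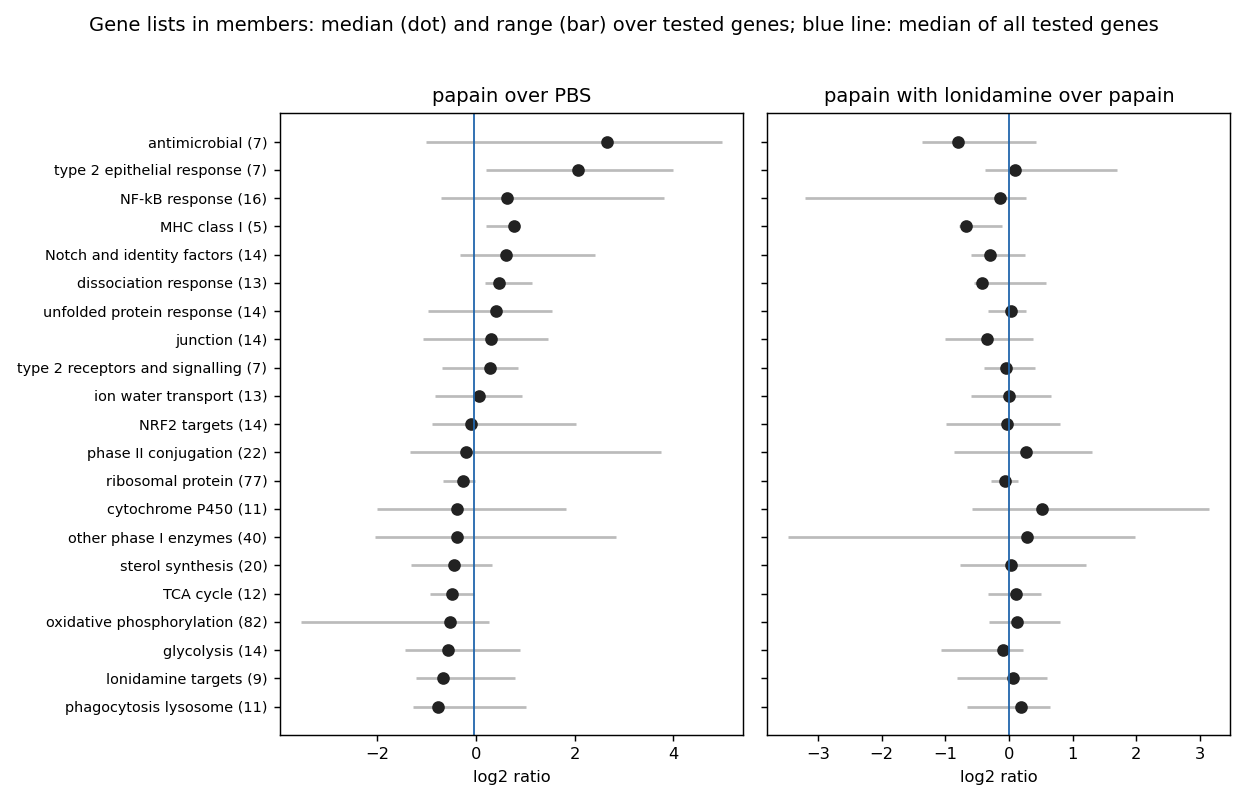
Log2 ratios of 21 gene lists in Muc2-negative cells, left for papain over PBS and right for lonidamine over papain; dots are list medians, bars run over all genes of the list that were compared, and the blue line is the median of all genes. The type 2 epithelial (2.06) and antimicrobial (2.65) medians lie furthest right on the left panel, while most lists lie near 0 on the right.

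Markers of other cells were looked at in the same cells. Immune markers summed to 26.1, 27.8 and 34.3 CPM in the lonidamine, papain and PBS libraries, against 7617 CPM in immune barcodes of the papain library. Mature neuron markers without Omp summed to 103, 97.5 and 476 CPM, so they were higher in PBS, where S100a5 stood at 29.9, 27.8 and 347 CPM. Ciliated-cell markers summed to 10.1, 120 and 10.5 CPM, with 59.6% of the papain value in 1 cell. Haemoglobin and related genes summed to 43.7, 1.51 and 169 CPM, with 96.4% of the PBS value in 1 cell, but 30.2% of the lonidamine cells held such a UMI. The 3 of them that could be compared had ratios of lonidamine over papain between 4.07 and 5.67, above that of Cyp2a4. Other lists were spread over most cells. Basal-cell markers summed to 591, 595 and 379 CPM and had UMIs in 94.4%, 94.6% and 91.7% of cells, although the basal keratins Krt5, Krt14 and Krt15 were below their level in immune barcodes of the papain library. Tuft-cell markers summed to 434, 599 and 387 CPM, in 66.8%, 72.2% and 59.6% of cells, but Dclk1 alone gave 431, 594 and 362 CPM. Only 1 cell in each library held at least 3 of the 5 tuft-cell genes. The gland list summed to 12004, 19577 and 5135 CPM and the goblet list to 29258, 49040 and 21437 CPM. Both sums were thus highest in the papain library. Their part in the differences between libraries was not tested.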

How the data were processed

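The authors deposited raw counts (UMIs per gene and barcode) from 10x Genomics 3′ libraries. The file headers name Cell Ranger 7.1.0, while the submitters' processing notes name 2.1.1 and GRCm39; filters applied before deposit are not given in the sources used here. Counts were summed over the chosen cells of each library and divided by their total. Ratios are log2 of CPM with 0.5 counts added, with exact conditional binomial intervals; shares have Clopper-Pearson intervals. Both cover counting error only, and 1 library per group allows no test. Genes below a mean of 10 CPM and the 8 genes of the rule were left out. Neuron-like barcodes had at least 5 Omp UMIs and 2 of 4 neuron genes; immune barcodes had Ptprc. Named genes were the 12 highest and lowest ratios with at least 30 CPM and 3 times the level of both references, plus fixed genes and members of lists. Shares used cells thinned to 3000 UMIs. Doublets were called with Scrublet (scanpy 1.11.5) as an alternative only; 3, 1 and 0 chosen cells were called in the lonidamine, papain and PBS libraries. Python 3.11.15, numpy 2.4.6, scipy 1.17.1 and pandas 2.3.3 were used. The members and gene lists were chosen with earlier results of these data known.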

Additional observations from a re-analysis of the deposited data

Results flagged for a closer look

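Among the genes named by the rule or fixed by name, 2 had log2 ratios of opposite sign in female and male cells for papain over PBS and 6 for lonidamine over papain, with both counting intervals away from 0. Of all 8476 genes 69 and 240 did so, 7 and 34 of them by at least 2-fold in both sexes. The differences between the sexes were not tested. The sexes were told apart by Xist and Y-linked genes within pooled libraries, so animals cannot be separated. The intervals count UMIs of the same cell as independent, so they are too narrow for genes held by few cells. With both sexes together, the 5 richest lonidamine and papain cells held 90.8% and 57.6% of Scgb3a1 and 86.8% and 59.7% of Muc5ac. For Itln1 these were 75.4% and 42.7%, for Tff2 53.6% and 35.8%, for Chil4 50.4% and 51.3% and for Reg3g 41.5% and 33.0%. For Chil4 the log2 ratio of lonidamine over papain was -4.49 [-5.09, -3.99] in male cells and 0.58 [0.53, 0.62] in female cells. For Reg3g it was -4.75 [-4.93, -4.59] in male cells and 0.13 [0.09, 0.16] in female cells. The same ratio was -3.47 [-5.55, -2.18] in male and 1.70 [1.42, 1.99] in female cells for Muc5ac and -4.71 [-7.22, -3.33] and 1.71 [1.43, 1.99] for Itln1. It was -8.30 [-10.80, -6.97] in male and 0.39 [0.28, 0.49] in female cells for Tff2. For Scgb3a1 it was -7.54 in male cells, where the lonidamine library held no UMI and the interval ends at -4.63, and 0.41 [0.05, 0.78] in female cells. For Dcpp3 the ratio of papain over PBS was -5.49 in male cells, where the papain library held no UMI, and 7.44 in female cells, where the PBS library held none; both sizes depend on the 0.5 counts added. For Chil6 the log2 ratio of papain over PBS was -0.21 [-0.25, -0.16] in male cells and 0.11 [0.07, 0.15] in female cells, a small difference in both. Male cells numbered 57, 53 and 86 in the lonidamine, papain and PBS libraries, and female cells 136, 119 and 67.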

How the results depend on the processing

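No paired analysis was possible because each group is 1 pooled library. Shares of Muc2-negative cells, for lonidamine, papain and PBS, were 2.68%, 2.48% and 2.82% with markers at 2 UMIs, 0.576%, 0.803% and 0.925% with 4 of 5 markers, and 3.58%, 2.49% and 2.88% in male cells. The share was 2.30% in lonidamine with up to 1 Muc2 UMI, 1.49% in papain and 1.91% in PBS after thinning, and 1.71% in PBS among female cells. Genes at least 2-fold apart for lonidamine over papain were 210 higher and 134 lower after thinning, 154 lower in female cells, and 402 higher and 372 lower in male cells; for papain over PBS 470 were lower in male cells. With a minimum of 50 CPM the counts were 109 higher and 104 lower for papain over PBS and 41 and 17 for lonidamine over papain; with no minimum 1281, 602, 330 and 554. Log2 ratios of genes at least 2-fold apart (pooled or in the alternative) and list medians of at least 0.5 in size that changed sign for papain over PBS were Bpifb1 at -0.12 with 4 of 5 markers and -0.29 in Rgs5-rich cells, the interferon median at -0.10 after thinning, -0.20 with 50 CPM and -0.30 without the 5 richest cells, and the NF-kB median at -0.31 in Rgs5-rich cells. For lonidamine over papain they were the BPI-fold median at 0.28 with markers at 2 UMIs and 0.93 with 4 of 5 markers, AU040972 at 1.83 and Fcgbp at -0.16 after thinning, the interferon median at 0.091 in female cells and 0.17 with 50 CPM, the antimicrobial median at 0.078 in female and 0.066 in Rgs5-rich cells, Chil4 at -4.49 in male, -1.63 in Vmo1-rich and -2.61 in Rgs5-rich cells, Chil3 at -2.27 and Reg3g at 1.33 with 4 of 5 markers, and Dcpp3 at 3.54, Lama4 at 0.31 and Msln at 0.026 in male cells. Fewer cells enter the sex, marker and thinning alternatives, and fewer genes the 50 CPM minimum; the cause of the sign changes was not tested. The Vmo1-rich, Rgs5-rich and richest-cell alternatives were chosen after the data were seen. Of the single-gene values under all alternatives, 1015 stayed on their side of the 2-fold limit, 28 of these with another sign, 50 fell inside the limit, 9 passed it and 12 changed sign with the pooled or the alternative value past it. The 28 values were those of Chil3, Chil4, Chil6, Reg3g, Hk1 and Slc16a1. Depth limits genes with few UMIs, such as Chil3 and Slc16a1.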

Other observations

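A few genes outside the comparisons above were uneven between the libraries. Of 6 glucocorticoid-linked genes 2 were at least 2-fold higher in papain over PBS, against 4.8% of all genes, with a median log2 ratio of 0.52. The metallothionein Mt1 was at 8009, 9275 and 9302 CPM in the lonidamine, papain and PBS libraries. Klf9, a glucocorticoid-induced factor, was at 93.0, 87.6 and 40.1 CPM, with a ratio of papain over PBS of 1.12 in the pooled cells, 0.13 in female and 1.84 in male cells. Il33, an alarmin that starts type 2 responses, was at 22.3, 45.3 and 19.2 CPM (log2 ratio of papain over PBS 1.23, of lonidamine over papain -1.02). The chaperones Hspa5 and Hsp90b1 of the secretory pathway were at 891, 835 and 517 CPM and at 605, 589 and 405 CPM, and of 14 genes of the unfolded protein response 2 were at least 2-fold higher in papain over PBS, Pdia4 (1.54) and Sdf2l1 (1.24), with a median of 0.40. Tyro3, a receptor for the uptake of dying cells, was at 41.5, 65.2 and 32.1 CPM (1.02), and its ligand Gas6 at 84.2, 73.7 and 179 CPM (-1.28). Dclk1, a tuft-cell kinase, was at 431, 594 and 362 CPM in Muc2-negative cells, above the 54.4 CPM of neuron-like barcodes of the papain library, although the other tuft-cell genes looked at were below the level compared.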
